A study of Mus musculus with 8 samples.

Results

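The members of the tumor necrosis factor (TNF) ligand and receptor superfamilies that carry a Tnfsf or Tnfrsf symbol were examined in lung endothelial cells (ECs) of mouse pups. They were taken as all protein-coding genes of the deposited count table whose symbol begins with Tnfsf or Tnfrsf and a digit, with no use of their measured values. This gave 31 of 54532 genes, 11 ligands and 20 receptors. The family, and the lists of related genes described below, were chosen with earlier results of these data known. Founding genes with other names, such as Tnf and Fas, were outside the rule and are described as a separate list.

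The libraries were made from wild-type pups (C57BL/6J per the study's methods) at day 14, 4 reared in normoxia (21% O2) and 4 reared in hyperoxia (80% O2) since birth, with no other agent or allele in either group. Per the study's methods, nursing dams were rotated daily between the exposures, leukocytes were depleted from the lung suspension with CD45 beads, and ECs were then collected with CD31 beads. The labels did not say whether a library came from 1 pup or from several, so p-values measure the spread between these libraries, which may in part be technical. Library totals ran from 16098086 to 18300730 counts, and the 31 genes together held 0.0844 to 0.1036% of them.

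Ligands of this superfamily act as trimers, either on the cell surface or after release by proteases, and each binds a small number of receptors. Receptors with a death domain recruit adaptors that can activate caspases or NF-kB, other receptors bind TRAF adaptors through short motifs, and decoy receptors bind a ligand without passing on a death signal. ECs are a textbook target of TNF, to which they respond with adhesion molecules and chemokines.

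The isolate carried its labelled identity. The summed level of 8 endothelial markers, among them Pecam1 and Cdh5, was 13000 to 13800 CPM (the count scaled to the normalised size of its library) in normoxia and 12400 to 13000 CPM in hyperoxia. Of these 8, Kdr and Emcn were higher in hyperoxia, Tek (log2 fold change -0.79), Tie1 and Erg were lower, and Pecam1, Cdh5 and Esam did not pass the test described below. Markers of EC subtypes also differed between the groups. The 3 general capillary markers were all lower (sums of 1850 to 2040 CPM in normoxia against 864 to 1080 CPM), the 3 aerocyte capillary markers were all higher (661 to 927 CPM against 1550 to 1830 CPM), and 5 of 6 lymphatic markers were higher (1250 to 1340 CPM against 1870 to 2140 CPM). The part of these EC subtypes in the results was not tested. RNA of other lung cells was counted with it. All 8 markers of alveolar type 2 (AT2) epithelial cells were higher in hyperoxia, with sums of 243 to 338 CPM in normoxia, 765 CPM in hyperoxia 3 and up to 2280 CPM in the other hyperoxia libraries. All 7 markers of alveolar type 1 cells (77.0 to 95.1 CPM against 161 to 456 CPM), all 4 general epithelial markers (3.87 to 8.82 CPM against 15.9 to 54.2 CPM), 5 of 7 tested fibroblast markers (120.3 to 235 CPM against 180.2 to 433 CPM) and 5 of 7 mural markers (23.0 to 47.6 CPM against 43.3 to 102 CPM) were also higher. The only mesothelial marker tested of 4 was higher as well (sums of 0.0552 to 0.735 CPM against 0.859 to 1.998 CPM). Of 4 leukocyte, 4 B cell and 5 T and NK cell markers none passed that test, and 2 of 7 macrophage markers were higher (117 to 283 CPM against 197 to 462 CPM). No marker on any list was at 0 in every library. In such bulk samples, fewer cells of a type and less RNA per cell cannot be told apart.

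The receptors that rose under hyperoxia were 4 in number, the TWEAK receptor Tnfrsf12a (Fn14), the death domain receptors Tnfrsf21 (DR6) and Tnfrsf10b (DR5), and the decoy receptor Tnfrsf23. Another 2 receptors, Tnfrsf25 (DR3) and Tnfrsf13b (TACI), fell, and so did 1 ligand, Tnfsf13 (APRIL). The 2 most abundant members per length, Tnfrsf1a (TNFR1) and Tnfsf10 (TRAIL), were not called. Of the 31 genes 21 passed the filter on low counts, and 19 of these reached its minimum in all 8 libraries (the exceptions were Tnfsf9 and Tnfrsf18). With edgeR's quasi-likelihood test and a Benjamini-Hochberg adjusted p under 0.05 over all 15564 genes tested, 7 of the 21 tested members were called (33.3%), against 35.6% of all genes tested and 38.8% of the protein-coding ones. The share was thus near that of all genes. Higher were 4 members (18.5% of all genes were higher) and lower were 3 (17.1% of all genes were lower). With an absolute log2 fold change (log2FC, hyperoxia over normoxia) of 1 or more as a further condition 2 members were called, both higher, against 6.98% of all genes (5.62% higher and 1.36% lower). This stricter count was 4 without normoxia 1, without hyperoxia 2 or without hyperoxia 3. The all-gene share at this threshold is not given for these fits. By the adjusted p alone, leaving out hyperoxia 3 gave 5 members higher and 4 lower of 22 tested, with 5303 of 15920 genes called. Leaving out normoxia 1 gave 6 higher and 3 lower of 22 tested, with 5223 of 15952 genes called. The groups did not overlap in 8 tested members, 5 higher and 3 lower, against 35.4% of all genes (17.8% higher and 17.6% lower). These were the 7 called members and Tnfsf9, which at 9 counts in normoxia 1 missed the minimum of the filter there. Tnfsf9 reached that minimum in all hyperoxia libraries, the group in which it was higher. The median log2FC of the 21 members was 0.09, and that of all genes tested was -0.004.

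The epithelial markers above rose between the same groups of libraries. The mean log2 CPM of the AT2 markers separated the 2 groups without overlap, so hyperoxia and epithelial RNA cannot be told apart in a fit that holds both. With this score as a covariate none of the 7 had an adjusted p under 0.05 in edgeR, and the number of called genes went from 5535 to 192 of 15564. Tnfrsf12a then had a log2FC of 1.44 and an adjusted p of 0.0629. Of the 21 tested members 3 (Tnfrsf12a, Tnfrsf13b and Tnfrsf10b) had an unadjusted p under 0.05. In the same fit 1889 of all 15564 genes tested had one as well.

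**Figure D1:**
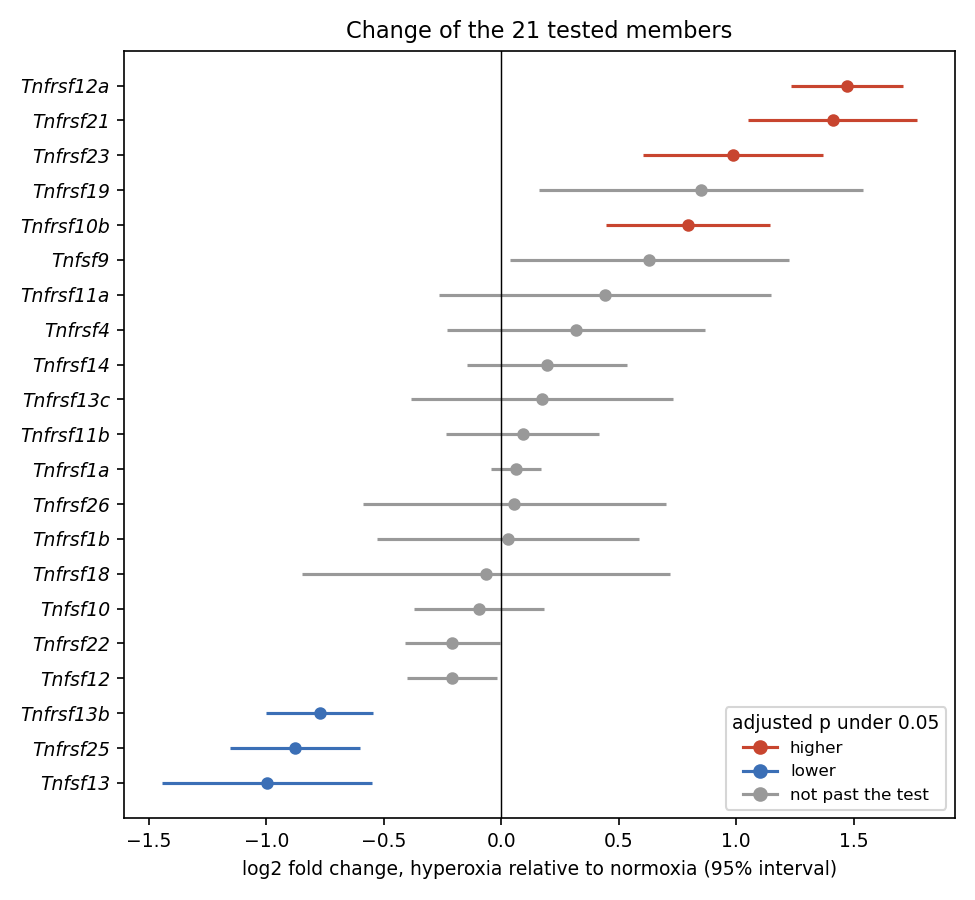
Log2FC of hyperoxia over normoxia for the 21 tested members (horizontal axis), with points for the edgeR estimate and lines for the unadjusted 95% interval (4 libraries per group), coloured by the call. Tnfrsf12a (1.47) and Tnfrsf21 (1.41) lie farthest right and Tnfsf13 (-0.996) farthest left, while Tnfrsf1a (0.06) and Tnfsf10 (-0.09) lie near 0.

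Promoter sequences were looked up in RefSeq (build GRCm38.p6) as the 250 bases before each transcription start. Windows were found for 24 of the 31 members (28 windows). They were searched on both strands, overlapping matches included, for the kappa-B consensus of NF-kB (GGG, a purine, any base, 3 pyrimidines, CC), for the GC box GGGCGG and for the AP-1 motif TGANTCA. The sequences shown, 5′ to 3′ on the strand of the gene, belong to the 2 receptors with the largest rises and to the 2 receptors that fell (for Tnfrsf25, the upstream one of its 2 windows). Capitals mark the GC box or its reverse complement. The windows lie at chr17:23677450-23677699 (minus strand), chr17:43016305-43016554 (plus), chr4:152115684-152115933 (plus) and chr11:61126505-61126754 (plus).
Tnfrsf12a: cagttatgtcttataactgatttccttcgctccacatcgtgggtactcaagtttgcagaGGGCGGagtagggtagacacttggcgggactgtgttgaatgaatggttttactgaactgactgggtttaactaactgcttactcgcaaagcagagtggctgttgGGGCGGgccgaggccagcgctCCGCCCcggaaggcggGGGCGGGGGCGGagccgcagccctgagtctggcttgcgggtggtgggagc
Tnfrsf21: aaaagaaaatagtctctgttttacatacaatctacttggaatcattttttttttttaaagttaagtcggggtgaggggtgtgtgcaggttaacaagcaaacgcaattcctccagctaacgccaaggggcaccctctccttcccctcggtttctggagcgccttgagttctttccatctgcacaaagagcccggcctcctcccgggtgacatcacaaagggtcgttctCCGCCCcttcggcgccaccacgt
Tnfrsf25: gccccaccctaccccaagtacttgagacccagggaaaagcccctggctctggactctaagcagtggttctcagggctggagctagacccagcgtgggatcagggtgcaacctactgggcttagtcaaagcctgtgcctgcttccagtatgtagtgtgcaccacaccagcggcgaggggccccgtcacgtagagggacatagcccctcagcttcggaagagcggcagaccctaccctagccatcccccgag
Tnfrsf13b: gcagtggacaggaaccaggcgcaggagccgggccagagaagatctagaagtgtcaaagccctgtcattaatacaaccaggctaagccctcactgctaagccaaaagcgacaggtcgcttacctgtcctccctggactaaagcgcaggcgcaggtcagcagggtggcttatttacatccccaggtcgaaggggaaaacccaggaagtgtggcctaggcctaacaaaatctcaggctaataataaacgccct
Tnfrsf12a had 5 GC boxes in its window, at -191, -87, -66, -50 and -44 from the start, and Tnfrsf21 had 1, at -23. The kappa-B consensus and the AP-1 motif were found in none of the 4 windows shown, and the other window of Tnfrsf25 held the consensus at -28. Among all 32851 windows 5.0% held the consensus, 32.7% held the GC box and 6.75% held the AP-1 motif, and among the 28 member windows these were 3 (10.7%), 11 (39.3%) and 5 (17.9%). The outcome for kappa-B depended on how it was spelled. With GGG, any 2 bases, TT, any base and CC, a form tried earlier, 4.11% of all windows and 3 of 28 member windows matched, among them Tnfrsf13b at -61 and the window of Tnfrsf25 shown, at -218. A still looser form (GGG, any 5 bases, CC) matched 45.8% of all windows. A match describes these letters only.

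Receptors with a death domain were examined next. All 4 members of this kind were tested, of which 2 rose, 1 fell and 1 was not called. On so few genes that was 75.0% called, against 35.6% of all genes. Tnfrsf21 (ENSMUSG00000023915, chromosome 17, 43016555 to 43089189, GRCm38) encodes DR6, which can signal for cell death and binds the amyloid precursor protein. It stood at 16.8, 12.2, 23.0 and 14.4 CPM in normoxia 1 to 4 and at 42.9, 44.4, 39.0 and 50.2 CPM in hyperoxia 1 to 4. Every hyperoxia library lay above every normoxia library, and the lowest hyperoxia value was that of hyperoxia 3. That library also had the lowest AT2 sum of its group, and the part of epithelial RNA in Tnfrsf21 was not tested. The mean went from 16.6 ± 4.65 to 44.1 ± 4.65 CPM (SD, n = 4 each), a log2FC of 1.41 (SE 0.163, adjusted p 8.44e-05 in edgeR). Fitted with the AT2 score, the log2FC was 0.86 (adjusted p 0.473).

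Tnfrsf10b (ENSMUSG00000022074, chromosome 14, 69767472 to 69784411) encodes DR5, the mouse TRAIL receptor with a death domain. Its normoxia libraries held 52.2, 86.6, 77.8 and 97.3 CPM, and its hyperoxia libraries held 117, 151, 131 and 147 CPM. The groups did not overlap, and normoxia 1 was the lowest of all. Tnfrsf10b rose from 78.5 ± 19.2 to 136 ± 15.5 CPM (SD, n = 4 each), a log2FC of 0.80 (SE 0.158, adjusted p 0.00275). It had a log2FC of 1.09 with the AT2 score in the model (adjusted p 0.408). Of the distinct 50-base words of its transcripts, 5.80% also occurred in transcripts of other genes.

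Tnfrsf25 (ENSMUSG00000024793, chromosome 4, 152115934 to 152120119) encodes DR3, the receptor of the ligand TL1A and best known on T cells. It stood at 23.6, 25.4, 22.7 and 21.8 CPM in normoxia and at 10.2, 15.2, 14.4 and 11.1 CPM in hyperoxia. All hyperoxia libraries lay below all normoxia libraries. Tnfrsf25 fell from 23.4 ± 1.55 to 12.7 ± 2.43 CPM (SD, n = 4 each), with a log2FC of -0.88 (SE 0.125, adjusted p 0.000337). With the AT2 score it was -0.53 (adjusted p 0.623). The 5 T and NK cell markers summed to 6.63 to 15.6 CPM in normoxia and 6.93 to 12.3 CPM in hyperoxia, and their part in this difference was not tested.

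Tnfrsf1a (ENSMUSG00000030341, chromosome 6, 125349362 to 125362484) encodes TNFR1, the main receptor for soluble TNF. It had 246, 246, 259 and 259 CPM in normoxia and 280.1, 262, 264 and 247 CPM in hyperoxia. The groups overlapped within a narrow range. Its log2FC was 0.06, with a 95% interval of -0.05 to 0.17 and an adjusted p of 0.353.

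**Figure D2:**
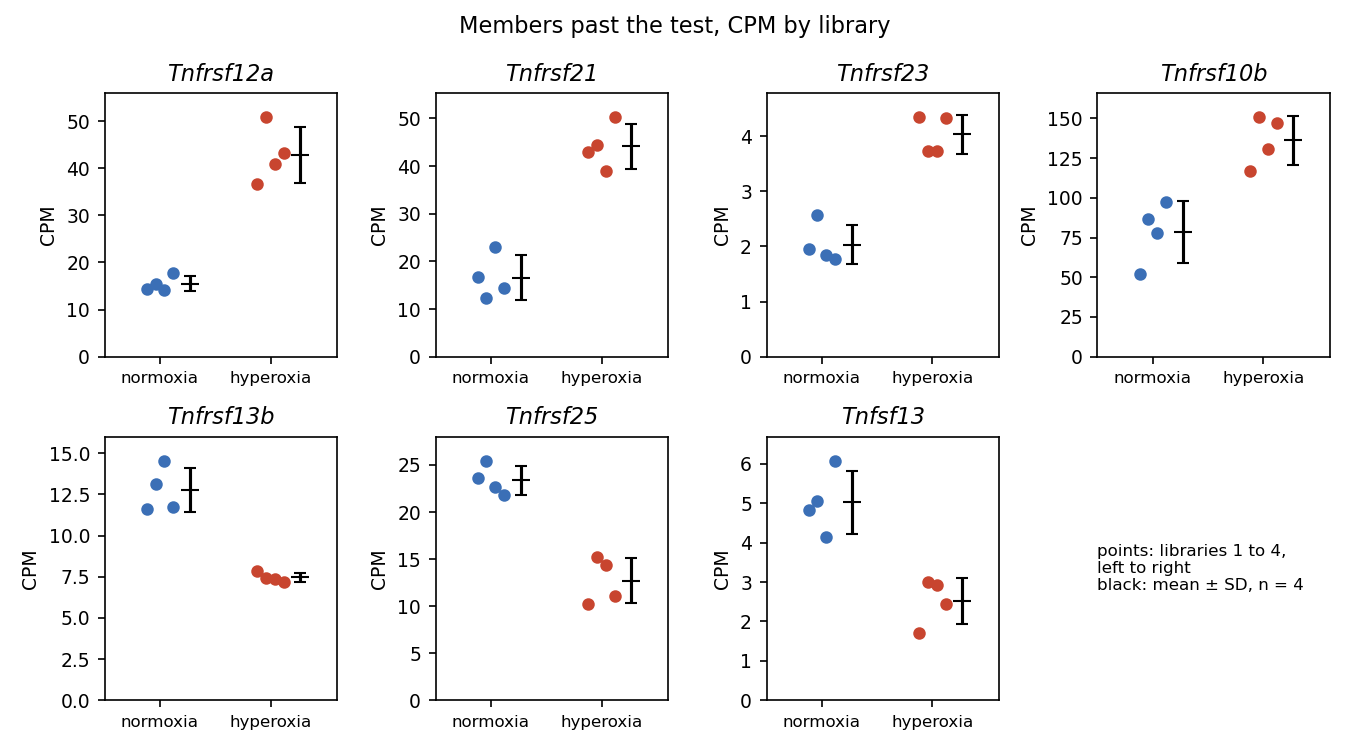
CPM (vertical axis, linear and starting at 0, with its own scale in each panel) of the 7 called members, with points for libraries 1 to 4 from left to right and black bars for the mean ± SD (n = 4). In Tnfrsf12a, Tnfrsf21, Tnfrsf23 and Tnfrsf10b all hyperoxia libraries lie above all normoxia libraries, and in Tnfrsf13b, Tnfrsf25 and Tnfsf13 they all lie below.

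Receptors that bind TRAF adaptors and lack a death domain formed the largest class. Of 12 members 9 were tested, 1 rose, 1 fell and 7 were not called (22.2% called, against 35.6% of all genes). Tnfrsf12a (ENSMUSG00000023905, chromosome 17, 23675445 to 23677468) encodes Fn14, the receptor for TWEAK, known as an immediate response gene of growth factors and tissue injury. It stood at 14.4, 15.5, 14.2 and 17.7 CPM in normoxia and at 36.6, 50.8, 40.9 and 43.2 CPM in hyperoxia. The lowest hyperoxia value was more than the highest normoxia value, and hyperoxia 3 lay inside the range of its group. The part of epithelial RNA in Tnfrsf12a was not tested. Tnfrsf12a rose from 15.4 ± 1.59 to 42.9 ± 5.95 CPM (SD, n = 4 each), a 2.78-fold change with a log2FC of 1.47 (SE 0.107, adjusted p 3.44e-06 in edgeR). This was the largest log2FC among the tested members.

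Tnfrsf13b (ENSMUSG00000010142, chromosome 11, 61126755 to 61149372) encodes TACI, which binds BAFF and APRIL and is best known on B cells. It stood at 11.6, 13.1, 14.5 and 11.8 CPM in normoxia and at 7.88, 7.42, 7.38 and 7.21 CPM in hyperoxia. The hyperoxia libraries lay close to each other and below all normoxia libraries. Tnfrsf13b fell from 12.8 ± 1.37 to 7.47 ± 0.285 CPM (SD, n = 4 each), a log2FC of -0.77 (SE 0.103, adjusted p 0.000227). It had a log2FC of -0.83 with the AT2 score (adjusted p 0.35). The 4 B cell markers summed to 93.3, 53.1, 127 and 52.8 CPM in normoxia and to 113, 76.4, 68.9 and 87.3 CPM in hyperoxia. These sums overlapped between the groups, and the part of B cell RNA in Tnfrsf13b was not tested.

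The other tested TRAF-binding receptors were not called. Tnfrsf13c, which encodes the BAFF receptor of B cells, had 4.41, 1.99, 4.48 and 2.65 CPM in normoxia and 3.71, 4.08, 4.24 and 3.22 CPM in hyperoxia (log2FC 0.17, 95% interval -0.39 to 0.73, adjusted p 0.632). Within normoxia it was highest in normoxia 1 and 3, the libraries in which the B cell markers were also highest, whereas within hyperoxia it was highest in hyperoxia 3, where those markers were lowest. The part of B cell RNA in Tnfrsf13c was not tested. Tnfrsf1b, which encodes TNFR2, the receptor that responds best to membrane TNF, had 14.2, 10.5, 21.8 and 10.4 CPM in normoxia and 20.2, 12.01, 11.5 and 14.3 CPM in hyperoxia (log2FC 0.03, 95% interval -0.53 to 0.58, adjusted p 0.945). Its highest value in each group came from normoxia 3 and hyperoxia 1. These were also the libraries with the highest summed leukocyte markers of their groups (193 and 191 CPM), and the part of leukocyte RNA in Tnfrsf1b was not tested.

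Tnfrsf19 (TROY), known from neural and epithelial development, had 3.61, 1.65, 1.40 and 1.602 CPM in normoxia and 3.77, 4.70, 2.52 and 3.83 CPM in hyperoxia. Normoxia 1 lay among the hyperoxia libraries and hyperoxia 3 below it. The fibroblast sum was likewise highest of normoxia in normoxia 1 (235 CPM) and lowest of hyperoxia in hyperoxia 3 (180.2 CPM). The same held for the sums of the AT2, alveolar type 1, general epithelial, mural and mesothelial markers. The part of any of these cells in Tnfrsf19 was not tested. The log2FC of Tnfrsf19 was 0.85 (SE 0.312, adjusted p 0.0557), and it passed the test without normoxia 1 (1.25, adjusted p 0.00364) or without hyperoxia 3 (0.996, adjusted p 0.0316). Tnfrsf11a (RANK), the receptor through which RANKL drives osteoclasts, had 3.31, 1.37, 1.62 and 1.27 CPM in normoxia and 2.63, 2.66, 1.77 and 3.16 CPM in hyperoxia. It too had its highest normoxia value in normoxia 1, with a log2FC of 0.44 (adjusted p 0.312) that became 0.84 without that library (adjusted p 0.0273). With the AT2 score as a covariate both had negative values, -0.87 for Tnfrsf19 and -1.30 for Tnfrsf11a.

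Tnfrsf14 (HVEM), the receptor of LIGHT, stood at 16.8, 14.6, 12.6 and 13.0 CPM in normoxia and at 21.9, 14.95, 14.9 and 13.7 CPM in hyperoxia (log2FC 0.20, 95% interval -0.14 to 0.54, adjusted p 0.354). The value of hyperoxia 1 stood apart from those of the other hyperoxia libraries. The T cell costimulatory receptors Tnfrsf4 (OX40) and Tnfrsf18 (GITR) were scarce. Tnfrsf4 went from 1.14 ± 0.327 to 1.43 ± 0.116 CPM (SD, n = 4 each, log2FC 0.32, adjusted p 0.348) and Tnfrsf18 from 0.827 ± 0.212 to 0.790 ± 0.344 CPM (SD, n = 4 each, log2FC -0.07, adjusted p 0.904). At 9 to 22 counts a library, the 95% interval of Tnfrsf18 ran from -0.85 to 0.72, so a moderate difference was not detectable at this depth. Per the annotation, the antisense gene Gm16008 covers 27.2% of the bases in Tnfrsf18 exons, and the strand setting of the counts was not stated.

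Decoy receptors came in 3 members, all tested, of which 1 rose (33.3% called, against 35.6% of all genes). Tnfrsf23 (ENSMUSG00000037613, chromosome 7, 143665809 to 143685872) encodes a mouse decoy receptor for TRAIL. It had 1.96, 2.56, 1.85 and 1.77 CPM in normoxia and 4.34, 3.74, 3.72 and 4.33 CPM in hyperoxia. The groups did not overlap, though the gene was scarce at 32 to 78 counts a library. Its lowest hyperoxia value was also that of hyperoxia 3, and the part of epithelial RNA in Tnfrsf23 was not tested. Tnfrsf23 rose from 2.03 ± 0.360 to 4.03 ± 0.349 CPM (SD, n = 4 each), a log2FC of 0.99 (SE 0.174, adjusted p 0.00134) that lay just short of the fold threshold of 1. In the fit that held the AT2 score it was 0.78 (adjusted p 0.601).

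Tnfrsf22, the other TRAIL decoy, and Tnfrsf26 lie beside it on chromosome 7, with 16147 bases between Tnfrsf22 and Tnfrsf23 and 6083 between Tnfrsf26 and Tnfrsf22. Tnfrsf22 had 24.8, 21.96, 21.7 and 22.5 CPM in normoxia and 17.3, 18.5, 22.7 and 20.2 CPM in hyperoxia. Its groups overlapped through hyperoxia 3, with a log2FC of -0.21 (95% interval -0.41 to -0.01, adjusted p 0.102), and without hyperoxia 3 it was lower (-0.29, adjusted p 0.0264). Of the 50-base words of Tnfrsf23, 18.0% also occurred in Tnfrsf22. Of those of Tnfrsf22, 27.4% also occurred in other genes, Tnfrsf23 among them. Some reads therefore cannot be assigned to either with certainty. Tnfrsf26, which has no known ligand, had a log2FC of 0.06 (95% interval -0.59 to 0.70, adjusted p 0.901) at 1.91 and 1.98 CPM. The third decoy, Tnfrsf11b (osteoprotegerin), a soluble protein that captures RANKL and TRAIL, had 11.0, 7.63, 8.73 and 6.79 CPM in normoxia and 8.28, 8.84, 9.67 and 9.54 CPM in hyperoxia (log2FC 0.09, adjusted p 0.672).

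**Figure D3:**
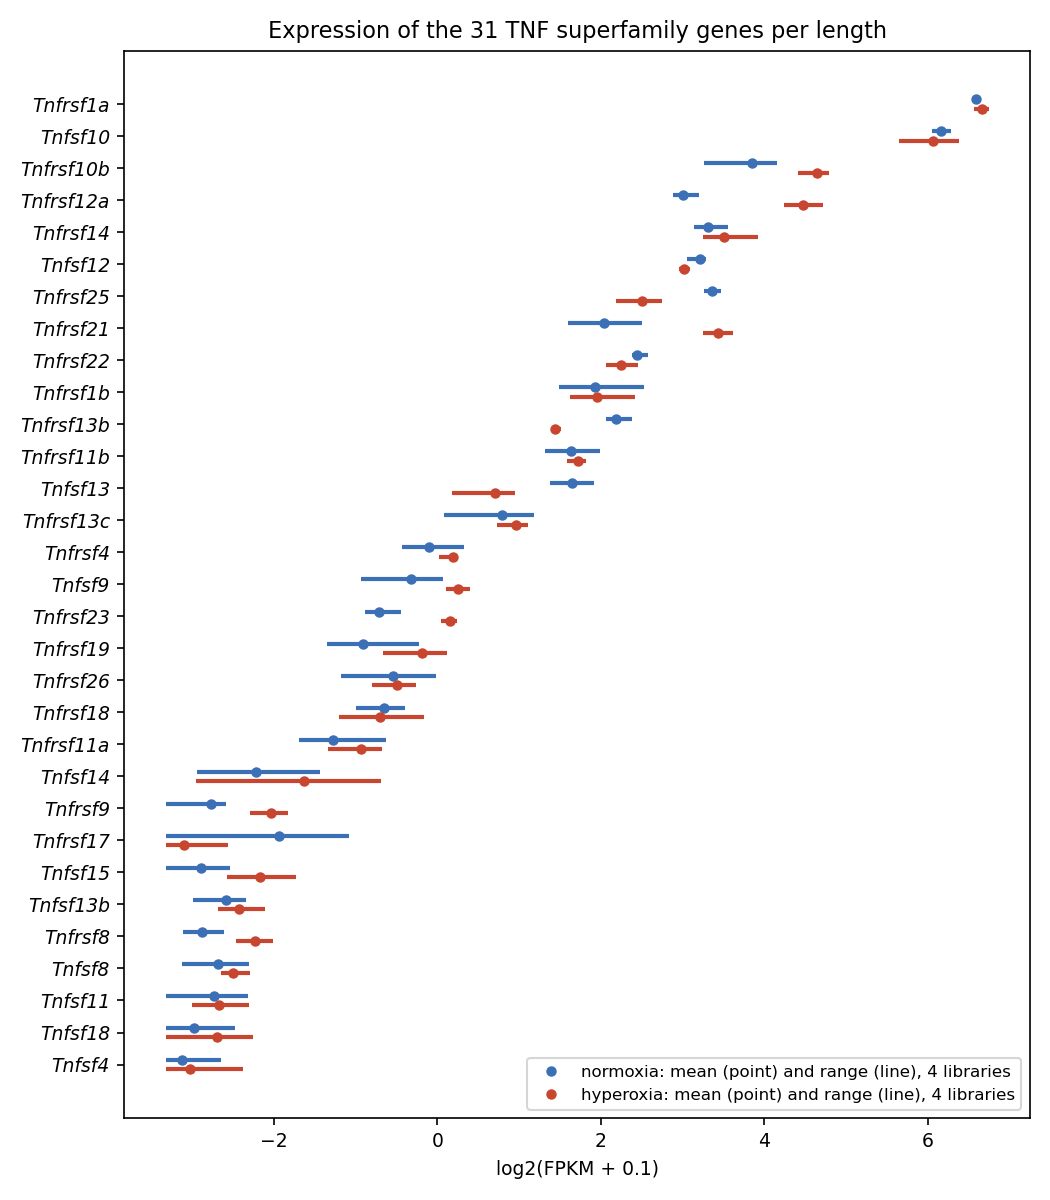
Deposited FPKM (fragments per kilobase of exon length and library total) of the 31 members on a log scale, log2(FPKM + 0.1), with points for the mean and lines for the range over 4 normoxia (blue) or 4 hyperoxia (red) libraries. Tnfrsf1a (98.8 FPKM over both groups) and Tnfsf10 (69.1 FPKM) stand above all other members, and the 10 genes that failed the filter lie at the bottom.

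Only 4 of the 11 ligands passed the low-count filter, and 1 of these fell (25.0% called, against 35.6% of all genes). Tnfsf13 (ENSMUSG00000089669, chromosome 11, 69682846 to 69685784) encodes APRIL, a secreted survival factor for B lineage cells. It stood at 4.84, 5.06, 4.14 and 6.08 CPM in normoxia and at 1.71, 3.002, 2.92 and 2.44 CPM in hyperoxia. No hyperoxia library reached the lowest normoxia library. Tnfsf13 fell from 5.03 ± 0.801 to 2.52 ± 0.591 CPM (SD, n = 4 each), a log2FC of -0.996 (SE 0.202, adjusted p 0.00311) that also lay just short of the fold threshold. The AT2 score as a covariate left it at -0.32 (adjusted p 0.874). The annotation places a readthrough gene, Tnfsfm13, over 60.0% of its exon bases on the same strand and an antisense gene over 13.5%, so its counts are uncertain. Tnfsfm13 itself had 2.66 CPM in normoxia and 1.91 CPM in hyperoxia (log2FC -0.47, adjusted p 0.159).

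Tnfsf12 (TWEAK), the ligand of Tnfrsf12a, lies upstream of Tnfsf13 on the same strand with 465 bases between the genes. Of its exon bases 48.3% lie within Tnfsfm13, so its counts are uncertain as well. It had 14.7, 14.8, 14.3 and 12.5 CPM in normoxia and 11.8, 12.2, 12.8 and 11.98 CPM in hyperoxia. The groups overlapped through normoxia 4 and hyperoxia 3. The log2FC of Tnfsf12 was -0.21 (95% interval -0.40 to -0.02, adjusted p 0.084), and it was lower with an adjusted p of 0.0422 without normoxia 4.

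Tnfsf10 (TRAIL), a ligand that can trigger apoptosis through Tnfrsf10b, was the most abundant ligand. It had 413, 355, 367 and 379 CPM in normoxia and 442, 339, 371 and 265 CPM in hyperoxia. The hyperoxia libraries spread on both sides of the normoxia libraries, with hyperoxia 1 highest and hyperoxia 4 lowest of all 8. The log2FC was -0.09 (95% interval -0.37 to 0.18, adjusted p 0.598). Tnfsf9, the 4-1BB ligand of T cell costimulation, had 0.551, 1.02, 1.23 and 0.8286 CPM in normoxia and 1.43, 1.59, 1.37 and 1.28 CPM in hyperoxia. Its groups did not overlap, but at 9 to 28 counts a library the log2FC of 0.63 was not called (adjusted p 0.0925), and 14.9% of its exon bases overlap a noncoding gene on the other strand.

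The other 10 members, 7 ligands and 3 receptors, did not pass the filter and never exceeded 17 counts in a library. Tnfsf13b (BAFF) had 3 to 16 counts, Tnfsf14 (LIGHT) 1 to 17, Tnfsf15 (TL1A) 0 to 12, Tnfsf8 (CD30 ligand) 1 to 7, Tnfsf11 (RANKL) 0 to 4, Tnfsf18 (GITR ligand) 0 to 4, Tnfsf4 (OX40 ligand) 0 to 3 and Tnfrsf17 (BCMA) 0 to 5 counts. For these genes differences were not detectable at this depth. Tnfrsf9 (4-1BB) had 3, 3, 3 and 0 counts in normoxia and 8, 6, 5 and 9 counts in hyperoxia. Tnfrsf8 (CD30) had 1, 3, 4 and 1 counts in normoxia and 7, 5, 9 and 7 counts in hyperoxia. Both receptors had groups that did not overlap, at counts too low for the filter. In the alternative fit with no filter, which tested all 31 members, neither was called.

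Levels can be compared between genes only per length, in FPKM. Tnfrsf1a (a mean of 98.8 FPKM over the 2 groups) and Tnfsf10 (69.1 FPKM) led the order, followed by Tnfrsf10b (19.6 FPKM), Tnfrsf12a (15.0025 FPKM), Tnfrsf14 (10.6 FPKM), Tnfsf12 (8.60 FPKM), Tnfrsf25 (7.87 FPKM) and Tnfrsf21 (7.35 FPKM). The range over all libraries was 93.7 to 107 FPKM for Tnfrsf1a and 49.99 to 83.2 FPKM for Tnfsf10, so the leading receptor stood above the leading ligand in every library. Tnfrsf12a (7.31 to 26.2 FPKM) and Tnfrsf10b (9.53 to 27.6 FPKM) overlapped each other. The order differed between the groups. In normoxia Tnfrsf25 (10.2 FPKM) stood above Tnfrsf12a (7.93 FPKM) and Tnfrsf21 (4.01 FPKM), and in hyperoxia it stood below both (5.56 against 22.1 and 10.7 FPKM).

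Ligands and their receptors were set side by side on the same FPKM scale. TWEAK and Fn14 were at 9.21 and 7.93 FPKM in normoxia and at 7.99 and 22.1 FPKM in hyperoxia. The readthrough gene Tnfsfm13 covers 48.3% of the exon bases of TWEAK and 60.0% of those of APRIL. The levels of these 2 ligands are therefore uncertain. TRAIL went from 71.3 to 67.0 FPKM, while its death receptor Tnfrsf10b went from 14.3 to 24.9 FPKM and its decoys Tnfrsf22 and Tnfrsf23 went from 5.35 to 4.64 and from 0.509 to 1.01 FPKM. APRIL and its receptor TACI fell together, from 3.05 to 1.53 and from 4.47 to 2.62 FPKM. For DR3 the ligand TL1A was at 0.0348 and 0.122 FPKM, against 10.2 and 5.56 FPKM of the receptor. The BAFF receptor (1.64 and 1.85 FPKM) likewise exceeded its ligand BAFF (0.0674 and 0.0863 FPKM).

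The superfamily also holds 15 genes with other names, 7 ligands and 8 receptors. Of these 8 were tested (2 ligands and 6 receptors), 2 rose and none fell (25.0% called, against 35.6% of all genes, median log2FC 0.02), both of them receptors. With the AT2 score 1 of the 8 was called, against 192 of all 15564 genes tested. Eda2r, the receptor of the ectodysplasin isoform A2, rose from 1.92 ± 0.686 to 78.3 ± 8.65 CPM (SD, n = 4 each, log2FC 5.33, SE 0.179, adjusted p 2.84e-08). Fas, the receptor of Fas ligand with a death domain, rose from 59.5 ± 0.968 to 70.1 ± 1.37 CPM (SD, n = 4 each, log2FC 0.24, adjusted p 0.00121). The lymphotoxin beta receptor Ltbr was at 162 and 166 CPM (log2FC 0.04, adjusted p 0.632). The 2 ligands had values of 4.17 and 3.12 CPM for Tnf (log2FC -0.42, adjusted p 0.135) and 7.53 and 4.74 CPM for Ltb (log2FC -0.67, adjusted p 0.0793).

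Adaptors, ligases, proteases and kinases that act below the receptors moved both ways. All 34 were tested, 7 rose and 7 fell (41.2% called, against 35.6% of all genes), none past the fold threshold, and their median log2FC was -0.01. Mlkl, the effector of necroptosis, rose from 21.4 ± 2.85 to 37.9 ± 6.13 CPM (SD, n = 4 each, log2FC 0.83, adjusted p 0.00055). Map3k5, the stress kinase ASK1, rose from 12.7 ± 2.53 to 21.6 ± 2.79 CPM (SD, n = 4 each, log2FC 0.76, adjusted p 0.00187). Traf5, an adaptor of several receptors of this family, fell from 42.9 ± 5.07 to 28.1 ± 1.96 CPM (SD, n = 4 each, log2FC -0.61, adjusted p 0.000376). Of the 2 most abundant, Cflar, which blocks caspase 8, stood at 260 and 264 CPM (log2FC 0.02, adjusted p 0.798), and Rbck1, a subunit of the linear ubiquitin ligase, fell slightly from 165 to 147 CPM (log2FC -0.16, adjusted p 0.0258). With the AT2 score none of the 34 had an adjusted p under 0.05 in edgeR, and 2 had an unadjusted p under 0.05. Of all 15564 genes tested, 1889 had an unadjusted p under 0.05 in that fit.

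Genes that process or release the ligands and receptors were a list of 7, all tested. Of these 5 rose and 1 fell (85.7% called, against 35.6% of all genes, median log2FC 0.26). The list was chosen with earlier results of these data known, so this share cannot serve as a test. The largest change was in an inhibitor of shedding, Timp3, which rose from 299 ± 36.0 to 1419 ± 37.7 CPM (SD, n = 4 each, log2FC 2.25, SE 0.0799, adjusted p 3.75e-08). Rhbdf2 (iRhom2), which brings Adam17 to the cell surface, rose from 104 to 182 CPM (log2FC 0.81, adjusted p 3.84e-06), and the convertase Furin rose from 135 to 179 CPM (log2FC 0.41, adjusted p 4.57e-05). Adam10, a sheddase, went up from 183 to 210.0 CPM (log2FC 0.20, adjusted p 0.0114). The gene that fell was Adam17, the protease that releases TNF and its receptors, named here after its values were seen (118 and 103 CPM, log2FC -0.19, adjusted p 0.0126). Of the 7, 2 were called with the AT2 score, as were 192 of all 15564 genes tested.

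Of 25 genes that TNF is known to induce in ECs, many of which other signals induce too, 23 were tested. Higher were 15 and lower were 2 (73.9% called, against 35.6% of all genes). Of the higher ones 7 were past the fold threshold, and the median log2FC of the list was 0.63. This list too was chosen with earlier results of these data known, so its share cannot serve as a test. Ptgs2, which encodes cyclooxygenase-2, rose from 12.4 ± 1.96 to 70.2 ± 13.6 CPM (SD, n = 4 each, log2FC 2.51, SE 0.149, adjusted p 1.01e-06). Icam1, which holds leukocytes on the endothelium, rose from 318 ± 35.2 to 689 ± 28.9 CPM (SD, n = 4 each, log2FC 1.12, adjusted p 1.85e-06). Cxcl10, a T cell chemokine, had 3.18, 4.38, 6.60 and 5.75 CPM in normoxia and 40.0, 9.80, 15.9 and 5.66 CPM in hyperoxia (log2FC 1.83, adjusted p 0.0187). Its groups overlapped through hyperoxia 4, and hyperoxia 1 lay far above the other libraries. Irf1, an interferon and TNF response factor, was at 368 ± 65.3 and 412 ± 142 CPM (SD, n = 4 each, log2FC 0.16, adjusted p 0.587). The 2 that fell, named after their values were seen, were the NF-kB inhibitor Nfkbia (-0.24, adjusted p 0.00948) and Nfkb1, which encodes an NF-kB subunit (-0.43, adjusted p 2.51e-05). With the AT2 score 1 of the 23 was called, against 192 of all 15564 genes tested.

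**Figure D4:**
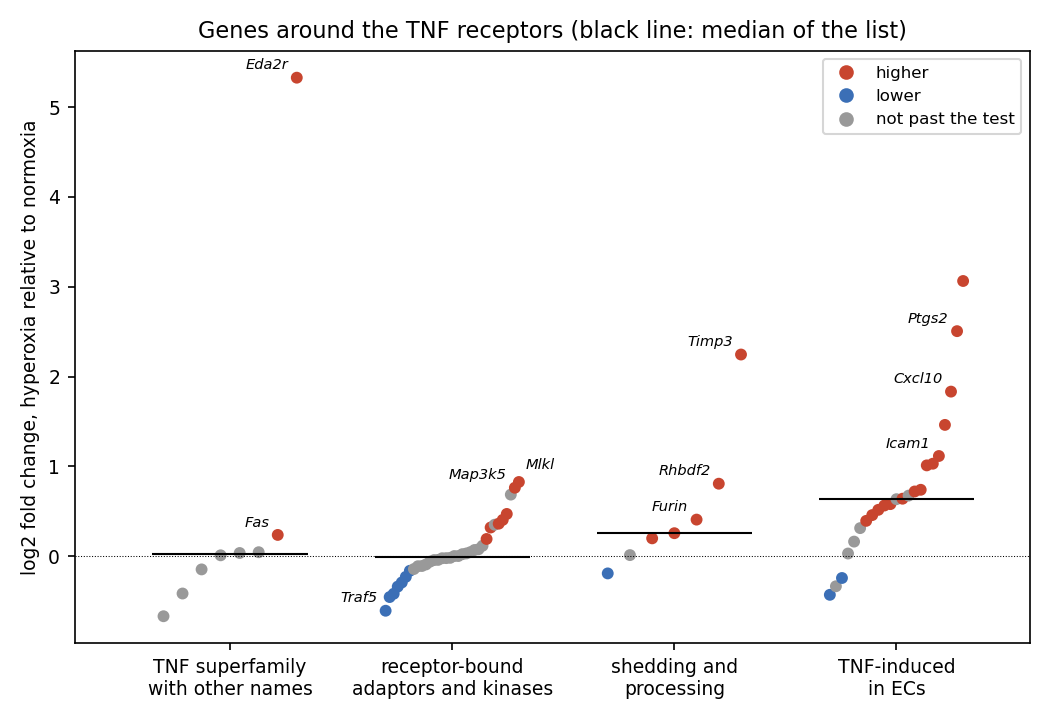
Log2FC of hyperoxia over normoxia (vertical axis) of each tested gene in the 4 lists of related genes, with 1 point per gene, coloured by its call, and a black line at the median of each list. The adaptors spread on both sides of 0 (median -0.01), the TNF-induced genes lie mostly above it (median 0.63), and Eda2r (5.33) lies farthest out.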

How the data were processed

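The authors deposited 1 table of raw gene counts and 1 table of FPKM for the same 8 libraries and 54532 genes. The submitters' processing notes name HISAT2 2.0.5, featureCounts 1.5.0-p3 and mm10, with the strand setting and the handling of reads that match several genes not given in the sources used here. Deposited FPKM was proportional to the count per gene length in each library. FPKM served for levels between genes and, as log2 FPKM, in alternative fits. All 31 members had the coordinates and exon lengths of GENCODE M21.

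Counts were fitted with edgeR 4.0.16 in R 4.3.3 (TMM, default low-count filter, quasi-likelihood test, group as the only term). The filter, a minimum of about 10 counts in 4 libraries, kept 15564 genes and at least 99.8% of the counts of each library. CPM is the count over the TMM-normalised library size. Standard errors follow from the F statistic. The study had used DESeq2, run here (1.42.0) as an alternative beside limma 3.58.1, other normalisations and filters, FPKM, a replicate block, protein-coding genes only, an AT2 marker covariate and leaving out each library.

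The members and lists were chosen with earlier results of these data known. All members with a value could be named, and of each list the 3 largest called changes at a mean of at least 10 CPM and the 2 most abundant genes. Replicates differed by more than counting noise (chi-square per degree of freedom 5.09 to 18.4), so none was merged. Scripts were tested on simulated data.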

Additional observations from a re-analysis of the deposited data

Results flagged for a closer look

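In each group of 4 libraries, a library was listed here if its distance from the nearest other one took up so much of the spread of the group that chance gives it in about 1 of 20 groups. This held for 3 of 42 groups, so some or all of them may be chance. Tnfrsf14 had 21.9 CPM in hyperoxia 1, while hyperoxia 2, 3 and 4 had 13.7 to 14.95 CPM. Tnfrsf19 had 3.61 CPM in normoxia 1, while normoxia 2, 3 and 4 had 1.40 to 1.65 CPM. Tnfrsf4 had 1.26 CPM in hyperoxia 1, while hyperoxia 2, 3 and 4 had 1.47 to 1.498 CPM.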

How the results depend on the processing

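The 7 called members kept their direction and stayed past the test under every alternative but the AT2 covariate. With that covariate 0 members were higher, 0 lower and 0 past the fold threshold. Called were 1 superfamily gene with another name, 0 adaptors, 2 shedding genes and 1 TNF-induced gene. Of all 15564 genes tested, 192 were called with that covariate. Members not called in the first place changed sign under it, with log2 fold changes of 0.21 for Tnfrsf22, -0.30 for Tnfrsf14, -1.06 for Tnfrsf1b, -0.0027 for Tnfrsf11b, -0.87 for Tnfrsf19, -1.30 for Tnfrsf11a and -0.44 for Tnfrsf26. The cause was not tested. Leaving out 1 library gave 2 to 4 members past the fold threshold, with 4 without normoxia 1, hyperoxia 2 or hyperoxia 3. The all-gene share past that threshold is not given for these fits. By the adjusted p alone they called from 4526 of 15877 genes (without hyperoxia 2) to 5445 of 15912 (without normoxia 3). Signs of uncalled members also turned when 1 library was left out. Tnfrsf1b ranged from -0.17 to 0.31 (-0.10 without normoxia 2 or normoxia 4, and -0.17 without hyperoxia 1). Tnfrsf26 ranged from -0.14 to 0.31 (-0.04 without normoxia 2, -0.14 without normoxia 4, -0.05 without hyperoxia 4). Tnfrsf18 ranged from -0.35 to 0.10 (0.05 without normoxia 2, 0.03 without normoxia 4, 0.10 without hyperoxia 2, 0.09 without hyperoxia 3). Tnfrsf13c ranged from -0.014 to 0.34 (lowest without normoxia 2), Tnfrsf11b from -0.0069 to 0.23 (lowest without normoxia 4) and Tnfsf10 from -0.22 to 0.024 (highest without hyperoxia 4). Tnfrsf19 passed the test with no filter, DESeq2 and voom (adjusted p 0.033, 0.0314 and 0.0341), and Tnfsf12 and Tnfsf9 on log2 FPKM. Replicate numbers gave no sign of pairing. The correlation of deviations was -0.14 to 0.12 for same-numbered libraries and -0.25 to 0.28 for different-numbered ones. Whether libraries shared a litter or batch was not tested. With the replicate number as a block 5 members were higher, 3 lower and 3 past the fold threshold, with Tnfrsf19 at an adjusted p of 0.0382. In that fit 4792 of all 15564 genes tested were called by the adjusted p, against 5535 without the block. Tnfrsf18 was not tested at a minimum of 1 CPM. Depth limits the members below about 1 CPM.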
